A study of Mus musculus with 3 samples.

Results

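Proteasome genes were compared between mouse neural stem cell (NSC) RNA with the genotype label Dnmt3a-/- and NSC RNA with the label wildtype, here called labelled KO and labelled WT. The members were all non-control probes whose gene name in the array files begins with Psma, Psmb, Psmc, Psmd, Psmf or Psmg followed by a digit, without Psmb8, Psmb9 and Psmb10 of the immunoproteasome. This gave 37 of the 27962 genes on the array, measured by 55 probes. Of these genes, 35 code for subunits of the proteasome, its assembly chaperones or its binding partner PI31. Psma8 codes for a core subunit known from testis, and Psmc3ip, a partner of meiotic recombinases, shares only the start of its name with the proteasome genes.

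Both kinds of NSC came from mouse embryonic stem cells by way of neurospheres and grew in serum-free N2B27 medium with EGF and bFGF. Each of 3 Agilent 2-colour arrays, given as biological replicates 1 to 3, held labelled KO RNA in Cy3 (green) and labelled WT RNA in Cy5 (red). The dyes were never swapped, so a dye bias of a probe and a difference between genotypes cannot be told apart. Neither the deleted part of Dnmt3a nor the number of cell lines behind the replicates is given in the sources used here. The p-values rest only on the spread between these 3 arrays, and limma draws each gene's variance toward a value pooled over all tested genes. The SD given beside a p-value is the gene's own, without that step.

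Dnmt3a itself, the targeted gene, was higher in labelled KO, at log2 levels of 11.37, 11.43 and 11.35 in labelled KO and 10.30, 10.46 and 10.42 in labelled WT. Its log2 ratio, labelled KO over WT, was 0.99 ± 0.08 (SD, n = 3; limma, adjusted p = 9.19e-07). Other probes of Dnmt3a read 0.61 and 0.76 and were also called higher, and with median centring the ratio of the first probe was 0.54. These values go against the label, although probes outside the deleted part check nothing. All 10 NSC markers were measured, of which 1 was higher and 8 were lower in labelled KO. Their summed intensity was 55200 to 56500 in labelled KO and 63700 to 66700 in labelled WT. The 6 fibroblast markers summed to 151000 to 155000 in labelled KO and 201000 to 220000 in labelled WT, with 5 of the 6 lower in labelled KO. The called markers of both lists kept their direction with median centring in place of loess. That centring put the median over all tested genes at -0.26. Here and below, a lower gene staying below 0 therefore adds no support, and a higher gene falling below 0 is by itself no reversal. Of the other marker lists, 1 of 3 tested astrocyte genes (Aldh1l1, -1.01), 2 of 4 neuron genes (Dcx, -0.53, and Tubb3, -0.23) and 2 of 5 oligodendrocyte genes (Cspg4, -1.26, and Mag, -0.16) were lower in labelled KO, also below 0 with median centring. Of 3 tested genes each, 1 immune gene (Cd68, 0.19), 1 endothelial gene (Emcn, 0.21) and 1 pluripotency gene (Dppa5a, 0.17) were higher, of which Emcn (-0.30) and Dppa5a (-0.036) were below 0 with median centring. The endothelial list summed to 6310 to 6850 in labelled KO and 5470 to 5850 in labelled WT. Nearly all of the labelled KO sum came from 1 gene, at a mean log2 level of 12.61, so it is no shift of the list. Pou5f1, Nanog and Zfp42 of the pluripotency list, Ptprc, Aif1 and Itgam of the immune list and Pecam1 and Cdh5 of the endothelial list were not well above background. In bulk RNA, fewer cells of a type and less RNA per cell cannot be told apart. The part of these marker shifts in the results below was not tested.

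The proteasome is the protease complex that degrades ubiquitin-tagged proteins in the cytosol and nucleus. Its barrel-shaped core is built of outer rings of alpha subunits, which gate the channel, and inner rings of beta subunits, of which Psmb5, Psmb6 and Psmb7 carry the active sites. A regulatory particle caps the core: its base holds a ring of ATPases (Psmc genes) that unfold substrates, and its lid removes ubiquitin. In mammalian cells, the transcription factor Nfe2l1 (Nrf1) raises proteasome genes together when proteasome activity falls short.

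After loess within each array, the proteasome genes of labelled KO NSCs differed little from labelled WT and went both ways. With each array centred on its median instead, 33 of the 37 were lower and 0 higher, against 52.1% lower and 4.07% higher of all tested genes. Of the 37 members, 6 were higher (16.2%) and 11 lower (29.7%) in labelled KO, and 20 did not pass the test (limma on the log2 ratio after loess, Benjamini-Hochberg adjusted over all 18034 tested genes, threshold 0.05). Over all tested genes, 22.5% were higher and 25.5% were lower, so the members' shares lay near the background. The higher members were Psmd8, Psmd13, Psmd2, Psmf1, Psma7 and Psmb7, and all 6 had values below 0 when each array was centred on its median in place of loess. The centred median over all tested genes was itself -0.26. Relative to that median, Psmd13 (0.0865), Psmd8 (0.0735) and Psmf1 (0.0685) lay above, and Psma7 (-0.219), Psmd2 (-0.128) and Psmb7 (-0.111) below. The lower members were Psmc3ip, Psmd5, Psmc5, Psma8, Psmc6, Psmd1, Psma6, Psma4, Psma5, Psma1 and Psmd9. Psma8 passed the filter on dim probes only through labelled WT, so its call supports nothing. Without Psmc3ip and Psma8, 6 were higher and 9 lower of 35, a set chosen after the data were seen. With the scanner software's processed signals, Psma4, Psma5, Psmd1 and Psmd9 were no longer called lower, nor Psmd2, Psmd8 and Psmd13 higher, while Psmd7 (0.17; limma, adjusted p = 0.0258) and Psmd10 (0.13; limma, adjusted p = 0.0465) were newly called higher and Psmb7 was at 0.19.

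Some of these calls were lost when 1 array was left out, which also leaves fewer arrays for the test. Without array 3 the count of higher members was 3, and Psma1 (-0.11), Psma6 (-0.14), Psma7 (0.096), Psmb7 (0.080), Psmd2 (0.13) and Psmd9 (-0.080) were no longer past the threshold. Without array 2 this held for Psma7 (0.12), Psmb7 (0.11), Psmd9 (-0.090) and Psmf1 (0.12), and without array 1 for Psma1 (-0.093), Psmb7 (0.11) and Psmd9 (-0.10). Psmc3 passed only without array 1 (-0.13) and Psmc4 only without array 2 (0.15), among these 3 repeats.

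Changes were small after loess. The median log2 ratio of the members was -0.041, against -0.011 over all tested genes, and their median absolute log2 ratio was 0.081, against 0.098 over all tested genes. On the single arrays the members' median was -0.059, -0.068 and -0.032, each below the all-gene medians of -0.018, -0.0040 and -0.0093. After loess no member differed 2-fold, 32 of the 37 had a mean within 0.2 of 0 on the log2 scale, and only Psmc3ip, Psmd5 and Psmc5 reached 0.3 in absolute value. Replicate arrays lay close together, with a median SD of 0.043 for the members and 0.056 for all genes. In 28 members (75.7%) the ratio had the same sign on all 3 arrays, as it had in 69.0% of all tested genes.

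**Figure D1:**
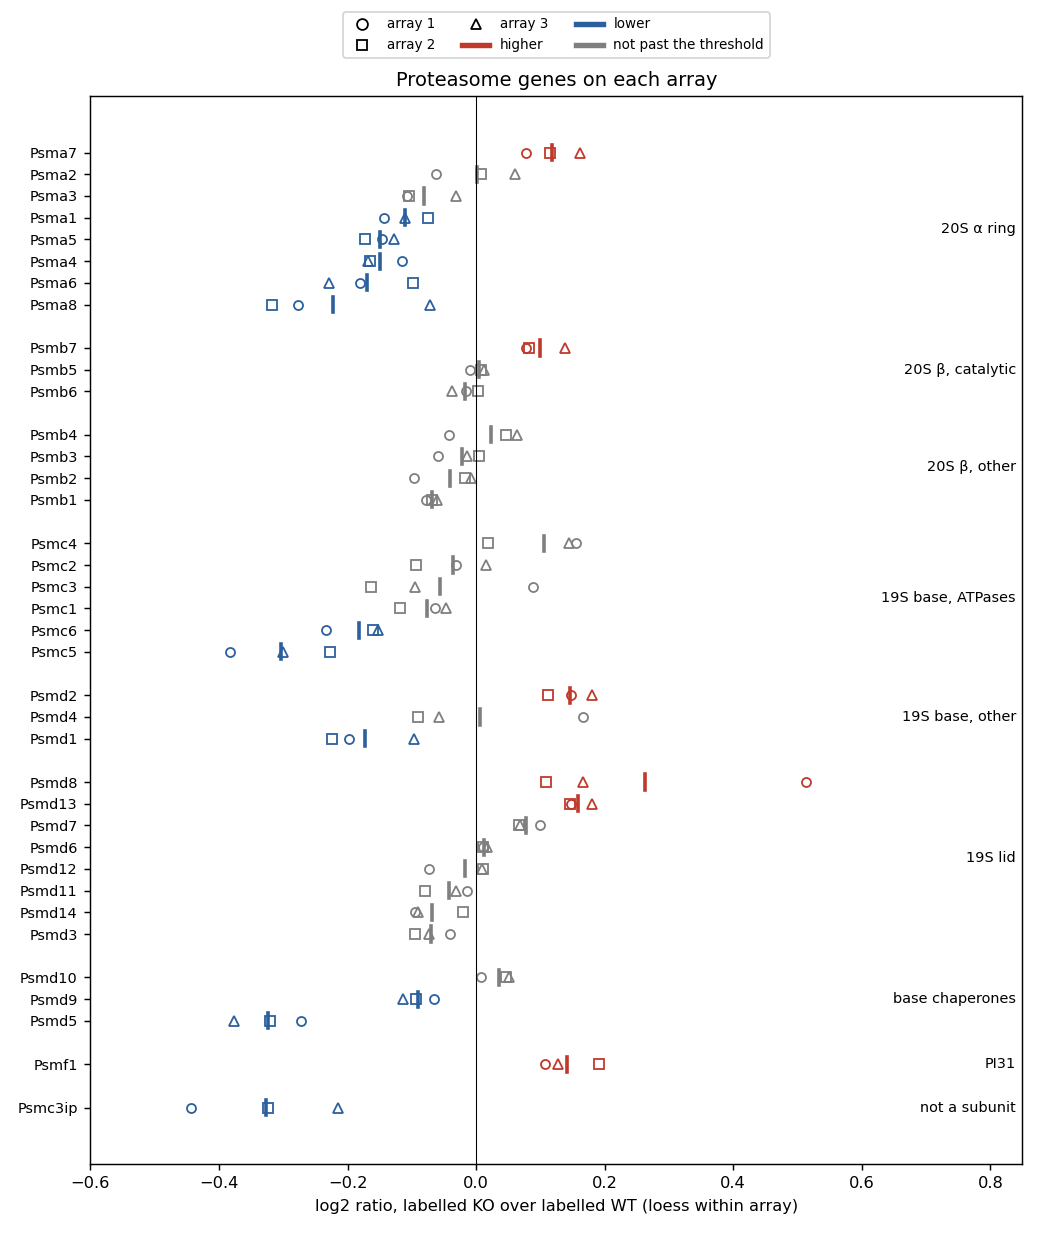
Log2 ratio, labelled KO over WT (horizontal axis) for each of the 37 genes on each of the 3 arrays (circle, square and triangle), with the mean as a bar, grouped by role. Red genes were higher and blue genes lower in labelled KO by limma. All 6 red genes lie below 0 when arrays are centred on their median, where the median over all tested genes is -0.26. Psmd8 has 1 array at 0.51, apart from its other arrays.

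**Figure D2:**
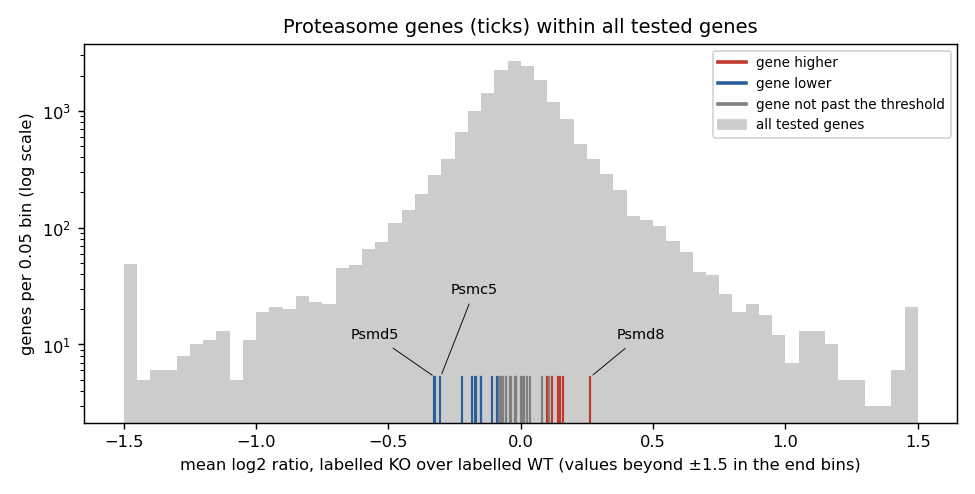
Number of tested genes (vertical axis, log scale) by mean log2 ratio, labelled KO over WT, with a tick for each of the 37 proteasome genes in red (higher), blue (lower) or grey (not past the threshold). All ticks lie between -0.33 and 0.26 after loess, near the middle of the distribution of 18034 genes. With median centring the red ones move below 0, where the median over all tested genes is -0.26.

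Of the 3 active-site subunits, the chymotrypsin-like Psmb5 and the caspase-like Psmb6 did not pass the test after loess, and the trypsin-like Psmb7 was slightly higher in labelled KO. With median centring all 3 were called lower, Psmb5 at -0.52 (limma, adjusted p = 0.00456), Psmb6 at -0.60 (limma, adjusted p = 0.00298) and Psmb7 at -0.37 (limma, adjusted p = 0.0159). That centring called 52.1% of all tested genes lower. Psmb5 had log2 levels of 12.59, 12.71 and 12.51 in labelled KO and 12.60, 12.70 and 12.49 in labelled WT. Its array-by-array differences were no more than 0.013, and the ranges of the groups coincided (mean log2 ratio 0.0038 ± 0.012, SD, n = 3; limma, adjusted p = 0.931). The 60-base probe behind this value lies on the minus strand at chr14:49480764-49480823 (mm7).
Psmb5, A_51_P269728: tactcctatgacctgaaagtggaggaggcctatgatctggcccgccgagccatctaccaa

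Psmb6 stood at 14.08, 14.05 and 14.01 in labelled KO and at 14.09, 14.05 and 14.05 in labelled WT. These ranges overlapped, with a mean log2 ratio of -0.017 ± 0.020 (SD, n = 3; limma, adjusted p = 0.694). Psmb7 reached 11.43, 11.39 and 11.35 in labelled KO and 11.35, 11.31 and 11.21 in labelled WT. It was higher in labelled KO on each of the 3 arrays, although the ranges of the groups touched, with a mean log2 ratio of 0.099 ± 0.034 (SD, n = 3; limma, adjusted p = 0.0382). Leaving out any 1 array ended the call for Psmb7, with mean log2 ratios of 0.080 to 0.11 and the lowest without array 3.

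The structural beta subunits Psmb1, Psmb2, Psmb3 and Psmb4, which shape the inner rings without a mature active site, gave no call after loess. With median centring all 4 of these subunits were called lower, at -0.65, -0.50, -0.61 and -0.59, as were 52.1% of all tested genes. Psmb4 had the highest log2 ratio of them, with levels of 14.64, 14.72 and 14.62 in labelled KO and 14.68, 14.67 and 14.56 in labelled WT, a mean log2 ratio of 0.023. The lowest ratio was that of Psmb1, with levels of 13.89, 13.84 and 13.77 in labelled KO and 13.97, 13.91 and 13.83 in labelled WT. Psmb1 was lower in labelled KO on all 3 arrays, by a mean log2 ratio of -0.069 ± 0.0082 (SD, n = 3; limma, adjusted p = 0.106), which did not pass the test, though it did with the background model fitted on all spots (-0.076; limma, adjusted p = 0.0192). Over the 7 beta genes the median log2 ratio was -0.017 after loess.

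Among the 8 genes of the alpha ring 1 was higher and 5 were lower in labelled KO after loess, against 22.5% higher and 25.5% lower of all tested genes. The 5 include Psma8 (-0.22), whose call supports nothing because it passed the filter only through labelled WT. The others were Psma6 (-0.17), Psma4 (-0.15), Psma5 (-0.15) and Psma1 (-0.11). The median log2 ratio of the ring was -0.13 with Psma8, and without Psma8 the middle gene was Psma1. With median centring all 8 lay below 0. Psma4 was measured by a pair of probes with near-equal values of -0.15 each. Psma5 read 14.84, 14.82 and 14.86 in labelled KO and 14.99 on each array in labelled WT, without overlap, but its log2 ratio was -0.021 (limma, adjusted p = 0.657) with the scanner software's own processed signals. Psma3 (-0.081) and Psma2 (0.0016) did not pass the test.

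Psma7 was the only alpha gene higher in labelled KO after loess, and it was at -0.48 with median centring. Its log2 levels were 14.42, 14.43 and 14.39 in labelled KO and 14.34, 14.32 and 14.23 in labelled WT. All labelled KO levels lay above all labelled WT levels, by a mean log2 ratio of 0.12 ± 0.043 (SD, n = 3; limma, adjusted p = 0.0217). Psma8, which replaces Psma7 in the testis proteasome, was at the edge of detection. No labelled KO spot of its probe was well above background, while those in labelled WT were on all 3 arrays, with levels of 6.16, 6.0 and 6.30 in labelled KO and 6.44, 6.32 and 6.37 in labelled WT. The labelled KO value is therefore uncertain. A bound of 6.15 in labelled KO against a mean of 6.38 in labelled WT gave a 1.17-fold difference. The dim group's own signal set that bound on every array, so 1.17-fold equals the measured ratio and is no minimum. The log2 ratio of Psma8 depended on the background correction. It was at -0.22 here, -0.024 with the background model fitted on all spots, -1.8 with the scanner software's processed signals and -1.81 in the authors' deposited table.

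In the regulatory base, the ATPase genes gave 2 lower (33.3%) and 0 higher calls out of 6 genes, and a median log2 ratio of -0.067. Of all tested genes, 25.5% were lower and 22.5% higher. Both ATPase calls stayed below 0 with median centring. Psmc5, whose tail docks into the alpha ring, had log2 levels of 11.57, 11.67 and 11.56 in labelled KO and 11.95, 11.90 and 11.86 in labelled WT. Every labelled KO level lay below every labelled WT level, a 1.23-fold difference (log2 ratio -0.30 ± 0.077, SD, n = 3; limma, adjusted p = 0.000461). Psmc6 showed the same order at a smaller size, with 13.70, 13.80 and 13.76 in labelled KO and 13.93, 13.96 and 13.92 in labelled WT (log2 ratio -0.18 ± 0.044, SD, n = 3; limma, adjusted p = 0.0031). Psmc4 had the highest log2 ratio of the ATPase genes, with levels of 12.05, 11.87 and 12.04 in labelled KO and 11.90, 11.85 and 11.90 in labelled WT. The labelled KO level of array 2 fell inside the labelled WT range, and its log2 ratio of 0.11 ± 0.076 (SD, n = 3) had an adjusted p of 0.0533 by limma, while its other probe, at 0.14, passed. Psmc1 (-0.077), Psmc3 (-0.056) and Psmc2 (-0.036) did not pass.

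The lower value of Psmc5 came from 1 of its 2 probes. The brighter probe, which stands for the gene, covers chr11:106371919-106372103 on the plus strand (mm7) and ends in a TGA, shown in capitals, that closes a reading frame running through the probe. The other probe lies upstream, at chr11:106370290-106370489, and had a log2 ratio of -0.019 ± 0.046 (SD, n = 3; limma over all probes, adjusted p = 0.684). Averaging both probes gave -0.16 (limma, adjusted p = 0.00329). The 2 sequences are shown because the reading for Psmc5 depends on which of them is taken.
Psmc5, A_52_P657435: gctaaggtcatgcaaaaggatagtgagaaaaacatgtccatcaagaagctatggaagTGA
Psmc5, A_51_P232355: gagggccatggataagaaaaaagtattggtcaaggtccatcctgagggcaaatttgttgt

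The 3 other base subunits went different ways after loess, while all were below 0 with median centring. Psmd2, a scaffold of the base, was at 12.92, 12.91 and 12.91 in labelled KO and 12.78, 12.80 and 12.73 in labelled WT. Psmd1, the other large scaffold, was at 11.38, 11.36 and 11.39 in labelled KO and 11.57, 11.58 and 11.48 in labelled WT. Neither pair of ranges overlapped: Psmd2 was higher, at a log2 ratio of 0.15 ± 0.035 (SD, n = 3; limma, adjusted p = 0.00756) and Psmd1 lower, at -0.17 ± 0.068 (SD, n = 3; limma, adjusted p = 0.00615). Psmd4, a ubiquitin receptor, was at 0.17 on array 1 and at -0.091 and -0.058 on the other two, and did not pass the test.

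The lid gave 2 higher (25%) and 0 lower calls among its 8 genes, against 22.5% higher and 25.5% lower of all tested genes. The median log2 ratio of the lid genes was -0.0026, and all 8 were below 0 with median centring. Psmd8 had the highest ratio of all members after loess. Its log2 levels were 10.96, 11.00 and 10.96 in labelled KO and 10.44, 10.89 and 10.80 in labelled WT, so the groups did not overlap and the labelled WT channel of array 1 stood lowest. The log2 ratio was 0.26 ± 0.22 (SD, n = 3; limma, adjusted p = 0.0186) over the 3 arrays and 0.14 (limma, adjusted p = 0.0272) without array 1. With the scanner software's processed signals Psmd8 did not pass the test (log2 ratio 0.23; limma, adjusted p = 0.148). Its probe lies on the minus strand within chr7:26115386-26116337 (mm7), a span of 952 bases for a 60-base probe, so it crosses an intron.
Psmd8, A_51_P149325: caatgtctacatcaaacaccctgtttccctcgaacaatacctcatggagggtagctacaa

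Psmd13, the other lid gene called higher, had close replicates, at 8.68, 8.56 and 8.70 in labelled KO and 8.54, 8.41 and 8.52 in labelled WT. No level of one group reached the other, and the log2 ratio was 0.16 ± 0.019 (SD, n = 3; limma, adjusted p = 0.00456), against -0.17 with median centring and 0.062 with the background model fitted on all spots. Psmd3 had the lowest log2 ratio of the lid after loess, with levels of 14.88, 14.95 and 14.75 in labelled KO and 14.92, 15.04 and 14.83 in labelled WT, with overlapping ranges and a log2 ratio of -0.070 that did not pass. Psmd14, the deubiquitinase of the lid, had a log2 ratio of -0.069, Psmd11 of -0.042, Psmd12 of -0.017 and Psmd6 of 0.012, none past the threshold. For Psmd7 the 3 probes read 0.078, 0.21 and 0.0092, and only the middle value passed in the fit over probes (limma, adjusted p = 0.00212).

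Among the 3 chaperones that help assemble the base, Psmd5 and Psmd9 were lower and Psmd10 (gankyrin) did not pass the test. Of all tested genes, 25.5% were lower. Psmd5, which holds ATPases apart from the core until they are assembled, had log2 levels of 10.30, 10.34 and 10.32 in labelled KO and 10.57, 10.67 and 10.69 in labelled WT. The groups were clearly apart, 1.25-fold (log2 ratio -0.32 ± 0.052, SD, n = 3; limma, adjusted p = 0.000191). Psmd5 had the smallest adjusted p of the members, and it passed the threshold with the same sign under all 12 settings, as did Psmc3ip, Psmc5 and Psmc6. Its probe lies on the minus strand at chr2:34859899-34859958 (mm7).
Psmd5, A_51_P455671: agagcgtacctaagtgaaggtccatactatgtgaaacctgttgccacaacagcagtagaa

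Psmd10 was at 10.11, 10.09 and 9.99 in labelled KO and 10.10, 10.04 and 9.94 in labelled WT, with overlapping ranges and a log2 ratio of 0.035 ± 0.023 (SD, n = 3). Psmd9 was lower at -0.091 ± 0.024 (SD, n = 3; limma, adjusted p = 0.0479), but its other probe read 0.076 and the mean of both was -0.0076 (limma, adjusted p = 0.87). Its call was also lost when any 1 of the arrays was left out. Psmf1, the PI31 protein that binds the core, was higher at 0.14 ± 0.044 (SD, n = 3; limma, adjusted p = 0.00996) after loess, at 0.051 with the background model fitted on all spots and at -0.19 with median centring. Psmc3ip, which is no proteasome gene by function, was at 10.63, 10.66 and 10.63 in labelled KO and 11.07, 10.99 and 10.85 in labelled WT. It had the lowest ratio of the members after loess, -0.33 ± 0.11 (SD, n = 3; limma, adjusted p = 0.000765), and its other probe read -0.35. The chaperones of the core, Psmg1, Psmg2 and Psmg3, carry older names on the array and so were not members, and none of them passed the test (-0.030, 0.030 and 0.019).

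Several members had more than 1 probe, which allowed a second look at the same transcript. Of 54 tested member probes 10 were higher and 13 lower in labelled KO, against 20.8% higher and 23.6% lower among all 26628 tested probes. In 14 genes with more than 1 tested probe, no pair of probes passed the threshold in opposite directions. Psmd2 (0.15 and 0.23), Psmc3ip (-0.33 and -0.35) and Psma4 (-0.15 and -0.15) repeated their direction past the threshold in both probes. Psmc5 and Psmc6 passed with the brighter probe only, and Psmd12 passed only with a dimmer one (-0.11).

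**Figure D3:**
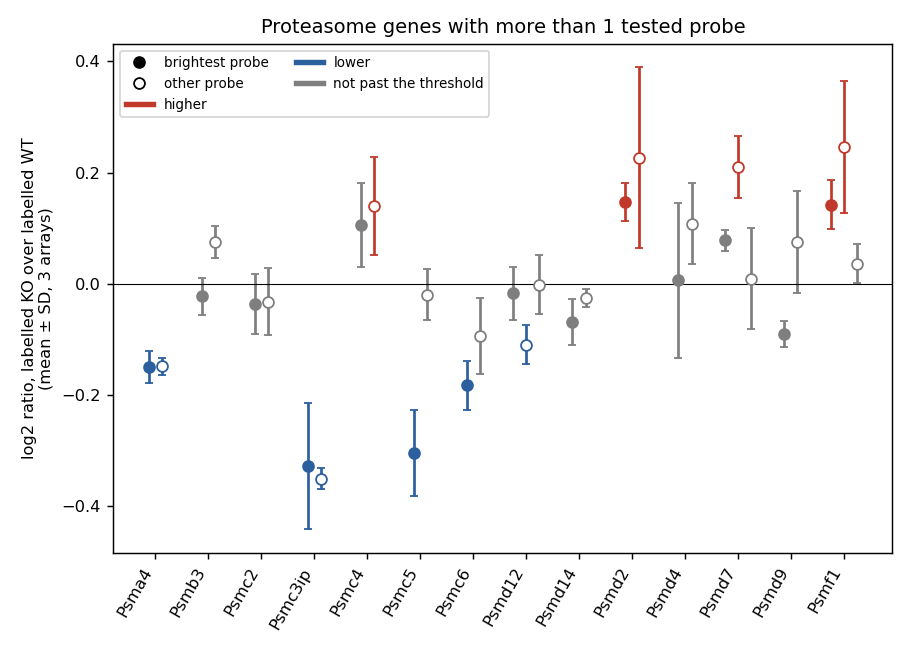
Mean log2 ratio (labelled KO over WT) and its SD over 3 arrays (vertical axis) for each tested probe of the 14 genes with more than 1, filled for the brightest probe and open for the others. Colours give the direction past the threshold after loess. Under median centring the brightest probes of the red probes' genes Psmd2, Psmc4, Psmd7 and Psmf1 are below 0, where the all-gene median is -0.26. Psmc5 shows the widest gap within the lower genes.

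The direction of the family as a whole depended on how the 2 dyes were balanced. With each array centred on its median, the median over all tested genes was -0.26, and 52.1% of genes were lower and 4.07% higher in labelled KO. Of the members 33 were then lower and 0 higher, with a median log2 ratio of -0.59, which is -0.33 relative to the all-gene median. Proteasome genes are bright on the array: their median log2 intensity was 12.6, against 8.34 over all tested genes, and 34 of the 37 lay in the brightest of 3 equal bins of genes. In that bin the centred median was -0.49 over all genes and -0.60 over the members. After loess the all-gene medians of the dim, middle and bright bins were -0.0097, -0.014 and -0.0076. Without a dye swap, a brightness-dependent dye effect and a shared decrease of bright transcripts in labelled KO cannot be told apart.

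**Figure D4:**
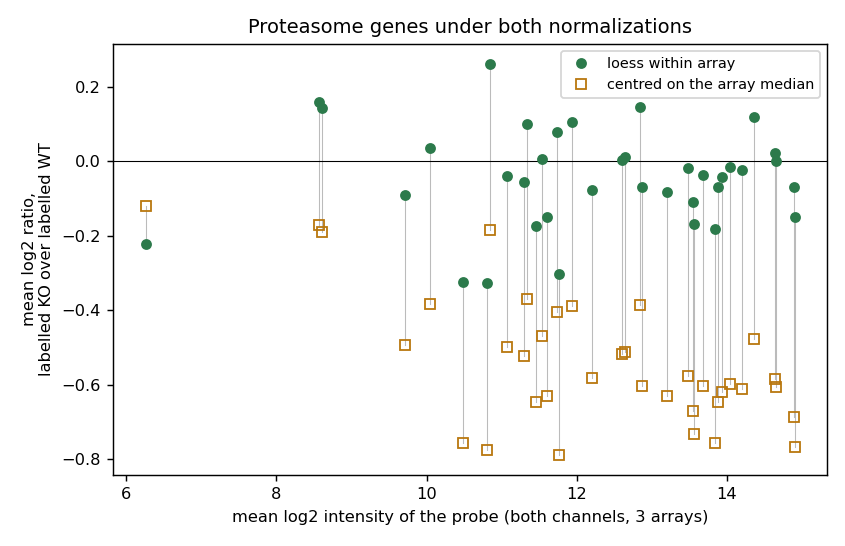
Mean log2 ratio, labelled KO over WT (vertical axis) against mean log2 intensity (horizontal axis) for the 37 genes, after loess (filled circles) and with arrays centred on their median (open squares), joined by lines. After loess the values scatter on both sides of 0. With centring all 37 lie below 0, with a median of -0.59, against -0.26 over all tested genes.

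The related genes were read beside the members, in lists that also were not chosen blind to these data. The 49 tested genes of these lists gave 17 higher and 18 lower calls after loess, and 1 higher and 37 lower calls with median centring. Over all tested genes, 22.5% were higher and 25.5% lower after loess, and 4.07% higher and 52.1% lower with centring. The 3 inducible subunits that replace the active-site subunits in the immunoproteasome were all lower in labelled KO, also with median centring. Psmb8 was at 7.47, 7.34 and 7.14 in labelled KO and 8.27, 8.22 and 8.25 in labelled WT, with wide separation (log2 ratio -0.93 ± 0.16, SD, n = 3; limma, adjusted p = 1.01e-05), and its other probe read -0.81. Psmb8 is dim, and its ratio was -0.29 when the background model was fitted on all spots. Psmb9 (-0.19) and Psmb10 (-0.13) were lower by less.

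Among activators, Psme4, which opens the core without ubiquitin, was higher at 0.14 after loess and at -0.42 with median centring, while Psme1 (0.038) and Psme3 (-0.066) did not pass. Other tested probes of Psme4 read -0.061 and 0.053 and did not pass. Of 10 measured genes for proteins that bind or help build the complex, 5 were lower and 0 higher, against the 25.5% and 22.5% of all tested genes. These were the deubiquitinase Uchl5 (-0.31), the nuclear import factor Akirin2 (-0.23), the thioredoxin-like Txnl1 (-0.20), the ubiquitin receptor Adrm1 (-0.19), which anchors Uchl5, and the adaptor Ecpas (-0.13). Another probe of Ecpas read 0.15 and was called higher. Other probes of Txnl1 (0.084) and Adrm1 (0.025) did not pass. The core maturation factor Pomp (0.011) and the lid subunit Sem1 (0.052) did not pass.

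The transcription factors gave opposite values. Nfe2l1 was at 12.71, 12.74 and 12.67 in labelled KO and 13.00, 12.96 and 12.82 in labelled WT, without overlap and at a log2 ratio of -0.22 ± 0.064 (SD, n = 3; limma, adjusted p = 0.00182), and it stayed lower with median centring. Nfe2l2 (Nrf2), the related factor of the oxidative stress response, was at 12.97, 12.91 and 12.98 in labelled KO and 12.43, 12.35 and 12.36 in labelled WT. Its levels were far apart after loess, at a log2 ratio of 0.57 ± 0.043 (SD, n = 3; limma, adjusted p = 7.85e-06), but the ratio was 0.049 with median centring. Other probes of Nfe2l2 read 0.35 and 0.31, both called higher, and 0.050, which did not pass. Maff, a small Maf partner of both factors, was higher at 0.76 and stayed higher, at 0.30, with median centring. Mafk was at 0.27 after loess and 0.045 with centring. Ddi2 and Ngly1, which cleave and deglycosylate Nfe2l1 on its way to the nucleus, Keap1, which holds Nfe2l2 back, Bach1 and Mafg did not pass the test. Another probe of Mafg read -0.13 and was called lower (limma over all probes, adjusted p = 0.0254).

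Of 8 Nrf2 target genes 6 were higher after loess, against 22.5% of all tested genes. With median centring only Hmox1 (0.093; limma, adjusted p = 0.415) and Gclm (0.052; limma, adjusted p = 0.577) of these were above 0, and neither passed the test. After loess the heme oxygenase gene Hmox1 was at 0.57, the glutathione synthesis genes Gclm and Gclc at 0.33 each and the thioredoxin reductase gene Txnrd1 at 0.31. The cystine carrier gene Slc7a11 was lower at -0.37, and Gsr (-0.079) did not pass, while another probe of Gsr read 0.14 and was called higher (limma over all probes, adjusted p = 0.0122). With the background model fitted on all spots, Gclm was at 0.125, Slc7a11 at -0.10 and Mafk at 0.081. Upstream of the proteasome, the 16 tested genes for ubiquitin, its activation and its shuttles gave 7 higher (43.8%) and 8 lower (50%) calls after loess. Over all tested genes the shares were 22.5% and 25.5%. The lower ones of this list included the shuttle gene Ubqln1 (-0.26) and Nploc4 (-0.25), a cofactor of the p97 ATPase. The higher ones included Sqstm1 (0.23), an autophagy receptor, and Uba1 (0.18), the main ubiquitin-activating enzyme, both below 0 with median centring. Ubb was also called higher, but its spot was saturated in labelled WT on all 3 arrays, so no direction is given for it. Vcp and Bag6 were called lower while another probe of each was called higher. Other probes of Ubqln1 read 0.044, -0.13 and 0.036, of which only -0.13 passed, and another probe of Uba1 (-0.067) did not pass.

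**Figure D5:**
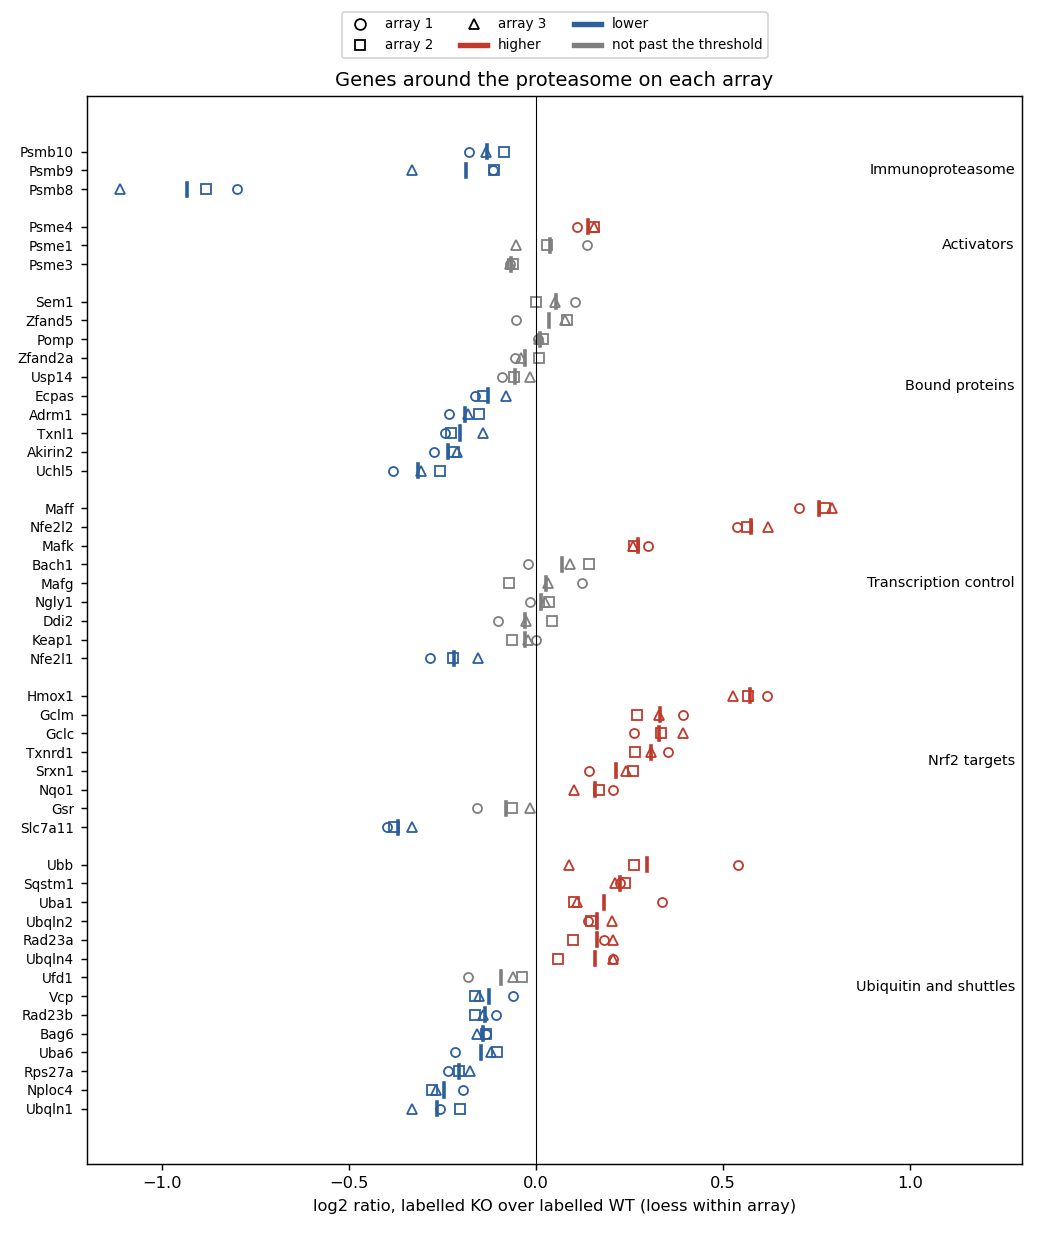
Log2 ratio, labelled KO over WT (horizontal axis) on each of the 3 arrays for genes around the proteasome, grouped by list, with the mean as a bar. After loess, red genes were higher and blue genes lower in labelled KO; with median centring only Maff among the red genes was still called higher, and the immunoproteasome gene Psmb8 is the lowest of the genes shown.

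Since Nfe2l1 and proteasome genes are linked through promoter elements, the 250 bases before the RefSeq start site (GRCm38.p6) were searched for them in the members, of which 30 matched a promoter. The core of the antioxidant response element that Nfe2l1 and Nfe2l2 bind was searched on both strands as TGACNNNGC and as TGAGNNNGC, each counted by itself. For every motif, a member counted if any of its promoters matched, while the background is the share of single promoters. A member with several start sites would have more chances of a match, so the shares are not like for like. TGACNNNGC was found in 5 of 30 members (16.7%) and in 10.2% of all 32851 promoters. TGAGNNNGC was found in 9 of 30 members (30.0%) and in 14.4% of all promoters. The ETS-type motif CCGGAAG stood in 10 members (33.3%), against 6.91% of all promoters. The GC box GGGCGG stood in 56.7% of members and 32.7% of all promoters, and the CCAAT box in 40.0% and 33.8%. A match is a description of the letters in this window and not evidence of binding.

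Promoters of 3 members are shown with matches to TGACNNNGC, TGAGNNNGC and CCGGAAG in capitals, and GC boxes, present in Psmd5 and Psmc6, not marked: Psmd5 and Psmc6, which were lower in every setting, and Psmb5, which did not pass the test after loess. That of Psmd5, chr2:34870963-34871212 on the minus strand, holds 1 match to TGAGNNNGC on its other strand, 153 bases before the start site, which a GC box overlaps. That of Psmc6, chr14:45329574-45329823 on the plus strand, holds TGAGNNNGC and TGACNNNGC, the second on the other strand, at 241 and 227 bases before the start site, and CCGGAAG at 100 bases. The Psmb5 promoter, chr14:54617996-54618245 on the minus strand, holds TGACNNNGC at 47 bases.
Psmd5 promoter: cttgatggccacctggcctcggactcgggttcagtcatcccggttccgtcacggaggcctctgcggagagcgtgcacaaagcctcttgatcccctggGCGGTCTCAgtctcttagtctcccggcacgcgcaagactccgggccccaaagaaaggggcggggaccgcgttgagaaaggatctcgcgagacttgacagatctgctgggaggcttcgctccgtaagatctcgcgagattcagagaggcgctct
Psmc6 promoter: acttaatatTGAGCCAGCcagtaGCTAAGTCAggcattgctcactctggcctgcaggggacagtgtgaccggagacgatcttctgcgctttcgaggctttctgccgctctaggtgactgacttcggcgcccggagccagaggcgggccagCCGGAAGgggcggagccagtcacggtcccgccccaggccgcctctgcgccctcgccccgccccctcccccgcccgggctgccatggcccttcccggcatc
Psmb5 promoter: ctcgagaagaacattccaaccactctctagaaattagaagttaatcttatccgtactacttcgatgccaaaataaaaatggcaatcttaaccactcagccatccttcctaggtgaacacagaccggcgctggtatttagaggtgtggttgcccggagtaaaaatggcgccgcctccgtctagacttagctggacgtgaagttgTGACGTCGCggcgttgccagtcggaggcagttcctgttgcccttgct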

How the data were processed

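The scanner output came from Agilent Feature Extraction 9.5.3.1 and gives mean spot and median background signals as raw intensity, per the file headers. Per the file headers, their processed signals are intensity after the scanner software's own background and dye correction, and their log ratio is log10 of red over green. A value table deposited by the authors correlated with the scanner's red over green ratio at -0.998, -0.996 and -0.992 and was taken as log2 of labelled KO over WT. Its column medians were 0.0276 each, and its centring and scaling are not given in the sources used here.

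Here, background was corrected with limma 3.58.1 (R 4.3.3) by normexp, offset 50, fitted on spots without outlier marks (170, 173 and 242 marked), followed by loess within each array with control and marked spots at weight 0. Spots of a probe were averaged. Testing required a probe well above background in labelled KO on all 3 arrays or in labelled WT on all 3, and the brightest tested probe stood for its gene, which left 18034 genes. Of 41174 probes, 22951 were named by accession, 9768 by symbol or synonym and 8455 as in the file. Channel levels are log2 intensities after loess and quantile normalization of average intensity between arrays. All 37 members passed the filter, 36 of them in both channels on all arrays. The median spot signal was 75.7 to 105 over a background of 39.5 to 43.0, and 3 arrays on 1 slide limit the precision.

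The test of the mean ratio against 0 was two-sided, by lmFit and eBayes of limma, adjusted by Benjamini-Hochberg over all genes, and the code was tested on simulated data. Alternatives were other background fits, median centring, processed signals, the authors' table, other filters, the mean over probes and leaving out each array. Every member could be named; channel values were given for active-site genes, the highest and lowest gene of each role and those at 0.3 or more. A few genes counted in the related lists are not reported here by name. Members and lists were chosen with earlier results of these data known.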

Additional observations from a re-analysis of the deposited data

How the results depend on the processing

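Over 11 alternative settings, Psmc3ip (-0.78 to -0.24), Psmc5 (-0.79 to -0.16), Psmc6 (-0.76 to -0.14) and Psmd5 (-0.76 to -0.27) kept their direction and passed the threshold in all. Median centring moved the most, and over all tested genes it left 4.07% higher and 52.1% lower. With it, 0 members were higher and 33 lower, with a median of -0.59. The related lists gave 1 higher and 37 lower calls with it, and Psmb6 passed at -0.60. It put 14 members from above to below 0: Psma2 at -0.61, Psma7 at -0.48, Psmb4 at -0.59, Psmb5 at -0.52, Psmb7 at -0.37, Psmc4 at -0.39, Psmd10 at -0.38, Psmd13 at -0.17, Psmd2 at -0.39, Psmd4 at -0.47, Psmd6 at -0.51, Psmd7 at -0.41, Psmd8 at -0.19 and Psmf1 at -0.19. The all-gene median was then -0.26, and Psmd13, Psmd8 and Psmf1 lay above it. The cause was not tested. With the scanner's processed signals 7 members were lower, with a median of -0.021, and 11 related genes were lower; with the authors' table the same counts were 7 and 11, with a median of -0.018. Fitting the background on all spots left 11 related genes higher, and an offset of 0 left 3 members higher. Psmb7 lost its call with an offset of 0 (0.10) and without the filter on dim probes (0.099). Leaving out 1 array gave 3 to 5 members higher and 8 to 10 lower, a median of -0.055 to -0.032, 14 to 17 related genes higher and 13 to 16 lower, and 0.080 to 0.11 for Psmb7. The test was already paired within arrays, since each array's ratio pairs its labelled KO and labelled WT RNA. This leaves 1 group of 3 ratios, with no further pairing to use. Signal over background limits Psma8, and the other members were well above background in both channels.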
